A study of Drosophila melanogaster with 4 samples.

Results

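The miR-956 hairpin gives both strands of a fly microRNA, miR-956-3p and miR-956-5p, and its 3p strand was listed with a pair of main 5' starts that lie 1 nt apart. Members were the distinct small RNA sequences that matched either mature strand exactly over 14 nt or more and whose 5' and 3' ends lay no more than 8 nt and 10 nt from those of the mature strand. They came to 106 of the 7181 distinct sequences in 4 libraries, 65 of them from the 3p strand and 41 from the 5p strand. The hairpin and its split by 5' start were chosen by the measured start shares, lengths and age ratios of these same libraries, so those values are given as a description.

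Small RNAs bound to an Argonaute protein were sequenced from whole male flies of the genotype FLAG-HA-Ago2, raised at 25 °C and aged to 3 d or 30 d. All 4 groups carry the tagged Ago2, the Ago1 libraries included. Ago1 was pulled down with an antibody to the protein itself and Ago2 with anti-FLAG M2 beads, so the protein and the way it was pulled down cannot be told apart. How many flies went into a library, and whether untagged Ago2 was also present, is not given in the sources used here.

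With 1 library in each group no difference could be checked against replicates, no test across conditions was made and the order of levels could not be set against a spread. The libraries listed from 13491805 reads (Ago2 at 3 d) to 34554191 reads (Ago2 at 30 d), between 16 and 44 nt long. Intervals are exact 95% binomial intervals and cover counting error only, since PCR copies are not independent molecules. Abundance is in RPM, the reads of a form per 1000000 listed reads, so a ratio between libraries compares shares of what was listed, and the amount of RNA held by each protein was not measured. As a check of the pull-downs, bantam-3p, a strand known to be held by Ago1, reached 86142 RPM in the 3 d library of Ago1 and 626 RPM in that of Ago2.

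A microRNA gene is transcribed as a hairpin that Drosha and then Dicer-1 cut into a short duplex, and 1 strand of it becomes the guide of an Argonaute. The guide finds its targets mainly through its seed, bases 2 to 8 from the 5' end, so a start moved by 1 nt gives the guide another seed. In flies Ago1 holds most microRNA guides and silences mRNAs through them, whereas Ago2 holds mainly siRNAs and takes up some microRNA strands according to the pairing of the duplex and the first base. The fly miR-956-3p is known from work on Drosophila C virus, in which its level fell on infection and Ect4, the fly relative of SARM, was found as a target.

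In the BDGP6 annotation the gene mir-956 (FBgn0262291) lies on the minus strand of chromosome 3L, from 11773731 to 11773878, and is 148 nt long. Its 5p strand is annotated at 11773845 to 11773868 (24 nt) and its 3p strand at 11773740 to 11773762 (23 nt), with 82 bases between them. No other named gene overlaps it. The nearest is Tim13, 181 nt away, whose product belongs to the import machinery of mitochondria, and another microRNA gene, mir-314, lies 629 nt away on the plus strand.

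The sequences below are the most abundant form of each 3p start that reached 0.1% of the strand's reads in a library. They are shown because the seed, in capitals, is what differs between the starts. The start is counted from the 5' end of the mature strand, and T stands for U as in the deposited lists.
start -1, 23 nt: gTTTCGAGaccactctaatccat
start 0, 23 nt: tTTCGAGAccactctaatccatt
start +1, 22 nt: tTCGAGACcactctaatccatt
start +2, 21 nt: tCGAGACCactctaatccatt
Starts 0, +1 and +2 open with T and share the 3' end, while start -1 opens with G and its most abundant form ends 1 nt early. The 5p strand is shown by its full form and by the forms that differed most in share between the proteins, an end 1 nt early and a start 2 nt late.
5p start 0, 24 nt: gTGTTTGGaatggtctcgttagct
5p start 0, 23 nt: gTGTTTGGaatggtctcgttagc
5p start +2, 22 nt: gTTTGGAAtggtctcgttagct

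Both mature strands were identified from the lists themselves. The 3p reference was the most abundant Ago1 sequence of the arm with the most Ago1 reads, where the sequences that overlap each other exactly make up an arm, and its 23 nt equal the annotated length. The 5p reference was the arm with the lowest duplex energy against it among 323 arms, -18.9 kcal/mol against -16.8 for the next, and its 24 nt equal the annotated length too. The computed duplex joined 16 base pairs. The first 3 bases of the 3p strand, its bases 12, 18 and 19 and its last base were unpaired in it. In the 5p strand bases 4 and 10 and all bases after base 18 were unpaired. The names of the strands, and those of the other microRNAs named here, are recalled knowledge and not read from the lists.

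The 3p strand was the most abundant arm with Ago1 at both ages, which follows from how it was identified, and the next after miR-263a-5p with Ago2. It took 4609307 reads with Ago1 at 3 d and 5163010 at 30 d, which was 17.3% and 19.5% of the listed reads. With Ago2 it took 3321183 reads at 3 d and 5407182 at 30 d, or 24.6% and 15.6%. The most abundant 4 of its sequences held between 98.3% and 98.9% of its reads in each library. Both arms passed the minimum of 100 RPM, as a mean of the libraries compared, in all 4 comparisons, and only between 0 and 2 reads per library overlapped a mature strand but fell outside the match rule. Reads from the rest of the hairpin were not looked for. Just inside the 0.1% limit for naming a start stood start +2, at 0.184% with Ago2 at 30 d, and just outside it start +3, at 0.0782% in that library.

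With Ago2 the most abundant start of miR-956-3p was start +1 at both ages. With Ago1 it was start 0, which was set by the most abundant Ago1 sequence. Start 0 held 79.0% of the strand's reads (78.99% to 79.07%) with Ago1 at 3 d and 77.0% (77.01% to 77.08%) at 30 d. With Ago2 it held 23.5% (23.50% to 23.59%) at 3 d and 20.7% (20.63% to 20.70%) at 30 d. The 2 proteins thus stood 55.5 percentage points apart at 3 d and 56.4 points apart at 30 d, with Ago2 the lower.

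Start +1 held 20.7% (20.69% to 20.76%) with Ago1 at 3 d and 22.7% (22.64% to 22.71%) at 30 d. It held 75.5% (75.48% to 75.58%) with Ago2 at 3 d and 78.0% (78.01% to 78.08%) at 30 d. Both Ago2 libraries were therefore far above both Ago1 libraries, and the difference between the proteins was 54.8 points at 3 d and 55.4 at 30 d. Put as a ratio, the reads of start +1 were 0.262 times those of start 0 with Ago1 at 3 d and 0.294 times at 30 d, against 3.21 times and 3.78 times with Ago2. These shares are taken within a library, so they do not depend on how libraries are scaled. With each protein the share of start +1 was a little higher at 30 d, by 1.95 points with Ago1 and 2.52 points with Ago2.

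**Figure D1:**
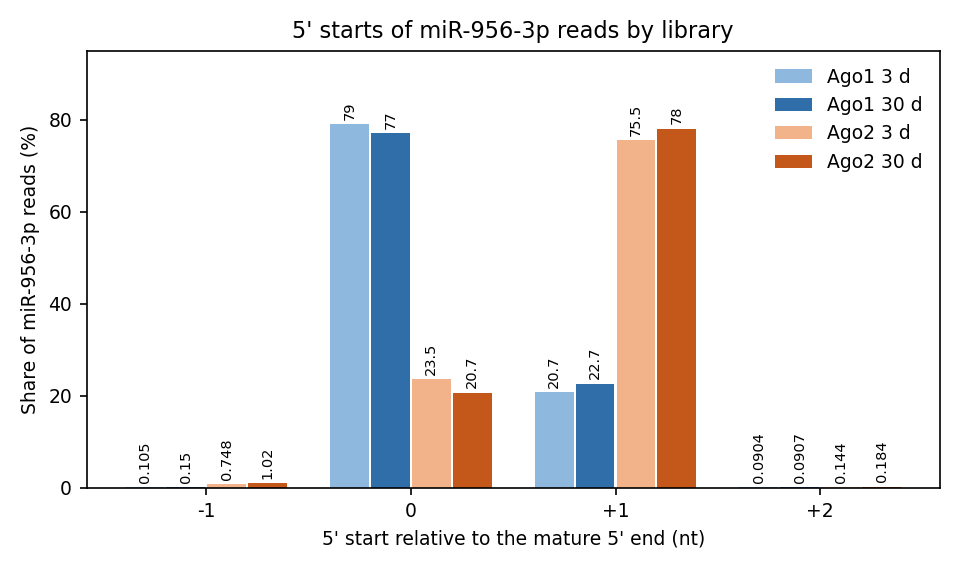
Share of miR-956-3p reads (vertical axis, percent) by 5' start relative to the mature 5' end (horizontal axis, nt), with 1 bar for each of the 4 libraries. Start 0 stands at 79.0% and 77.0% with Ago1 against 23.5% and 20.7% with Ago2, and start +1 at 20.7% and 22.7% against 75.5% and 78.0%.

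The rare starts on either side were also higher with Ago2. Start -1, with G as its first base, held 0.105% (Ago1, 3 d), 0.150% (Ago1, 30 d), 0.748% (Ago2, 3 d) and 1.02% (Ago2, 30 d). Both of its Ago2 shares lay above both Ago1 shares, and within each protein the 30 d library was the higher. Start +2 held 0.0904% and 0.0907% with Ago1 at 3 d and 30 d, and 0.144% and 0.184% with Ago2. Its intervals with Ago1, 0.0877% to 0.0932% at 3 d and 0.0881% to 0.0933% at 30 d, overlapped. As such intervals cover counting error only, a change with age was not tested at this or any other start.

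The seeds of the 4 starts were not shared with other abundant microRNAs. All listed reads with the seed TTCGAGA of start 0, TCGAGAC of start +1 or CGAGACC of start +2 belonged to miR-956-3p in all 4 libraries. Of the reads with TTTCGAG, the seed of start -1, 99.86% and 99.91% belonged to it with Ago1 at 3 d and 30 d, and 98.14% and 97.96% with Ago2. No other arm of at least 100 RPM had any of these seeds. Start 0 alone, counted as a guide of its own, ranked 2 among the starts of all arms with Ago1 at both ages, and start +1 alone ranked 2 with Ago2 at both ages.

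Start 0 stood at 136760 RPM (Ago1, 3 d), 150379 (Ago1, 30 d), 57968 (Ago2, 3 d) and 32332 (Ago2, 30 d). Start +1 stood at 35865 RPM (Ago1, 3 d), 44257 (Ago1, 30 d), 185927 (Ago2, 3 d) and 122134 (Ago2, 30 d). On totals of listed reads, start 0 was highest with Ago1 at 30 d and lowest with Ago2 at 30 d, while start +1 was highest with Ago2 at 3 d and lowest with Ago1 at 3 d. With the median of ratios over arms of at least 100 RPM, start 0 was instead highest with Ago2 at 3 d and lowest with Ago1 at 30 d.

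Relative to all listed reads, start +1 was 5.18-fold higher with Ago2 than with Ago1 at 3 d (log2 ratio 2.37) and 2.76-fold higher at 30 d (1.46), and it stayed higher under each scaling tried. Start 0 was 2.36-fold lower with Ago2 at 3 d (log2 ratio -1.24) and 4.65-fold lower at 30 d (-2.22), but this direction depended on the scaling. At 3 d it turned to 0.35 and 1.46 with TMM factors and with the median of ratios over arms of at least 100 RPM, and to 0.17 with totals that left out the 10 most abundant arms. At 30 d it turned to 0.24 with that median of ratios. Those scalings moved the median log2 ratio of Ago2 over Ago1 of all arms, which was -3.10 at 3 d and -2.53 at 30 d, by up to 2.68 at 3 d and 2.45 at 30 d. The difference between the starts within a library is the same in each.

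Start -1 stood at 182 and 293 RPM with Ago1 at 3 d and 30 d, and at 1840.2 and 1602 RPM with Ago2. Its log2 ratio of Ago2 over Ago1 was 3.33 (interval of the raw counts 3.29 to 3.38) at 3 d and 2.45 (2.42 to 2.49) at 30 d, the highest of the 4 named starts at both ages. Start +2 stood at 156 and 177 RPM with Ago1 and at 353 and 289 RPM with Ago2, with log2 ratios of 1.17 and 0.70.

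**Figure D2:**
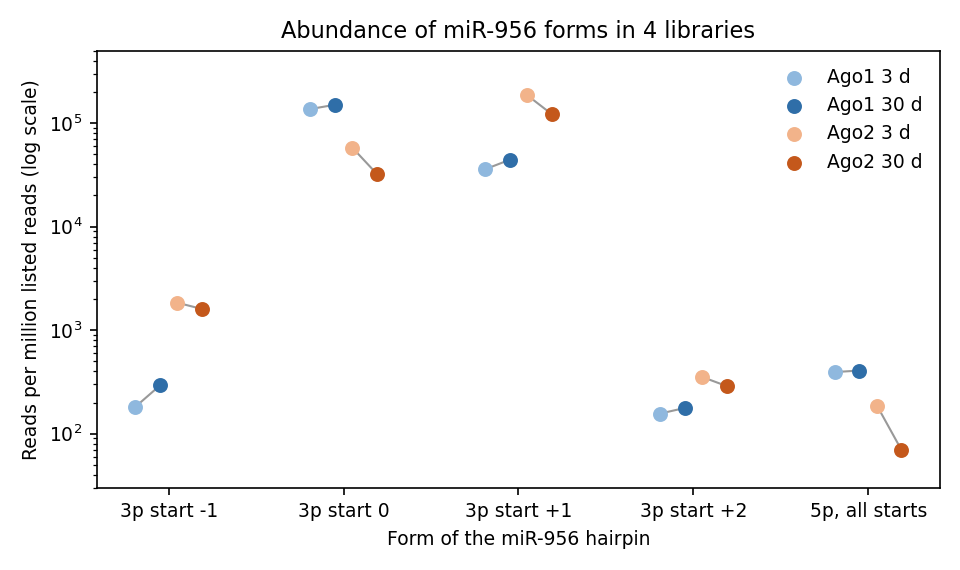
Abundance in RPM (vertical axis, log scale) of the 4 named 3p starts and of the 5p strand (horizontal axis), 1 point per library, with a line joining 3 d and 30 d of the same protein. Start 0 and the 5p strand lie lower with Ago2 and the other starts higher, and each form lies lower at 30 d than at 3 d with Ago2 and higher with Ago1, all on totals of listed reads; start 0 and the 5p strand turn under the scalings named in the text.

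Over all its starts and relative to all listed reads, the 3p strand was 1.42-fold higher with Ago2 at 3 d (log2 ratio 0.51) and 1.25-fold lower at 30 d (-0.32). The log2 ratio at 3 d was 1.003 with TMM factors, 1.37 with the median of ratios, 2.09 and 3.21 with these over arms of at least 100 RPM and 1.92 without the 10 most abundant arms. The value at 30 d turned to between 0.49 and 2.14 with the median of ratios, with either factor over arms of at least 100 RPM and without the 10 most abundant arms. Among the arms that averaged 100 RPM or more, 86.7% at 3 d (78 of 90) and 92% at 30 d (80 of 87) were at least 2-fold apart between the proteins, and on listed totals the 3p strand was not among them, although each of the 5 scalings put it at 2-fold or more at 3 d and both factors over arms of at least 100 RPM did at 30 d. With Ago2, 24 of them were higher and 54 lower at 3 d, and 27 and 53 at 30 d. The split was 35 and 49 at 3 d with TMM factors over arms of at least 100 RPM, and with the median of ratios over those arms 38 and 35 at 3 d and 37 and 29 at 30 d.

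With age the 3p strand stood 1.13-fold higher at 30 d than at 3 d with Ago1 (log2 ratio 0.17) and 1.57-fold lower with Ago2 (-0.65). The value with Ago1 turned to -0.04 with the median of ratios over arms of at least 100 RPM, while the one with Ago2 kept its direction and ranged from -1.11 to -0.62 over the scalings. In whole flies, fewer cells of a type and less RNA per cell cannot be told apart. Between the ages, 2.44% of arms (2 of 82) were at least 2-fold apart with Ago1 and 27.9% (19 of 68) with Ago2, and on listed totals the 3p strand was under 2-fold in both. With Ago2 it passed 2-fold with the median of ratios over arms of at least 100 RPM (-1.11) and without the 10 most abundant arms (-1.03). The median log2 ratio of 30 d over 3 d was -0.02 over the 82 arms with Ago1 and 0.35 over the 68 with Ago2.

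The starts had the same signs with age as the strand. With Ago1, start 0 was at a log2 ratio of 0.14, start +1 at 0.30, start -1 at 0.68 and start +2 at 0.18 for 30 d over 3 d. With Ago2 these values were -0.84, -0.61, -0.20 and -0.29. Start 0 had the lowest value and start -1 the highest with either protein, while start +2 lay below start +1 with Ago1 and above it with Ago2. The value of start 0 with Ago1 turned to -0.08 with the median of ratios over arms of at least 100 RPM. Start +2 was not recomputed under the other scalings, but a scaling moves all starts of a comparison by nearly the same amount. That median of ratios moved the median arm by -0.21 with Ago1, so the 0.18 of start +2 would turn negative there too. With Ago2 start +2 lay below start -1, which stayed negative under each scaling, so its sign would hold. The log2 ratio of Ago2 over Ago1 at 30 d minus that at 3 d was -0.98 for start 0, -0.91 for start +1, -0.88 (-0.94 to -0.82) for start -1 and -0.47 (-0.55 to -0.39) for start +2.

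The 3' ends depended on the start. Among reads of start 0, the full 23 nt form took 69.8% (Ago1, 3 d), 66.9% (Ago1, 30 d), 73.8% (Ago2, 3 d) and 68.1% (Ago2, 30 d). The form 1 nt shorter took 29.1%, 31.7%, 25.6% and 30.6% in the same order. With each protein the shorter form held a larger share at 30 d.

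Among reads of start +1, the form that reaches the same 3' end is 22 nt long and took 91.6% (Ago1, 3 d), 88.8% (Ago1, 30 d), 93.7% (Ago2, 3 d) and 90.8% (Ago2, 30 d). The form that ends 1 nt early took from 6.27% (Ago2 at 3 d) to 10.97% (Ago1 at 30 d), below its share at start 0 in every library. For start -1 the early end was the main one. It took 70.2% and 71.4% with Ago1 at 3 d and 30 d, and 64.5% and 61.1% with Ago2, while the full end took between 24.2% and 27.7%. The most frequent length was thus 23 nt for starts -1 and 0 and 22 nt for start +1 in all 4 libraries.

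**Figure D3:**
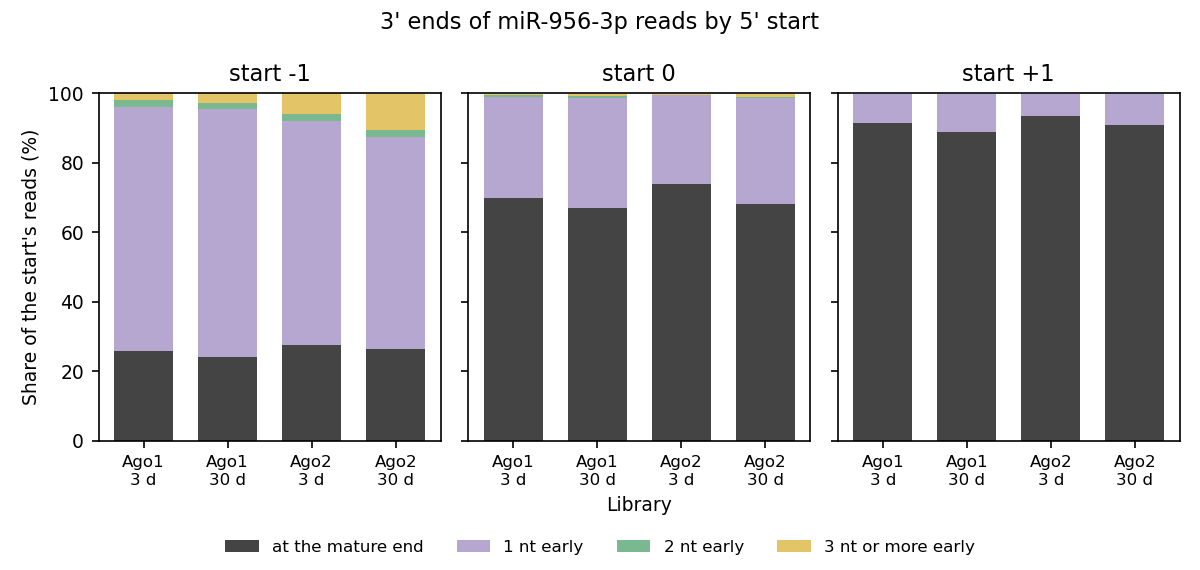
Share of a start's reads (vertical axis, percent) that end at the mature 3' end or 1, 2 or at least 3 nt before it, for starts -1, 0 and +1 (panels) in the 4 libraries (horizontal axis); reads past the mature end, at most 0.0151%, are not drawn. The share that ends 1 nt early goes from 70.2% at start -1 to 29.1% at start 0 and 8.27% at start +1 with Ago1 at 3 d, and the order is the same in the other libraries.

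Over all starts, the 3p strand was shorter with Ago2, at means of 22.13 nt in the 3 d and 22.07 nt in the 30 d library, where Ago1 had 22.52 and 22.47 nt. Within a start the means of the proteins differed by less. Start 0 had a mean of 22.68 nt with Ago1 and 22.73 with Ago2 at 3 d, and 22.65 and 22.66 at 30 d. Start +1 had 21.91 and 21.94 nt at 3 d, and 21.89 and 21.90 at 30 d. Start -1 had 23.20 and 23.13 nt at 3 d, and 23.16 and 22.98 at 30 d, and start +2 had 20.84 and 20.94 nt, and 20.78 and 20.89. The mean start moved from 0.21 nt with Ago1 to 0.75 nt with Ago2 at 3 d, while the mean 3' end moved from -0.27 to -0.12 nt. Over all 83 arms compared at 3 d, the change of mean length from Ago1 to Ago2 had a median of -0.02 nt and ranged from -2.82 to 1.02 nt. It was -0.39 nt for the 3p strand and -0.56 nt for the 5p strand, the 13th and 8th from the lowest. As the hairpin was also chosen by its lengths, nothing is read from these places.

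Reads cut back by at least 3 nt at the 3' end were few and differed by start. At start -1 they made up 1.79% (1.44% to 2.21%) with Ago1 at 3 d, 2.82% (2.46% to 3.21%) with Ago1 at 30 d, 5.95% (5.66% to 6.25%) with Ago2 at 3 d and 10.6% (10.38% to 10.90%) with Ago2 at 30 d. At start 0 they made up 0.535% and 0.764% with Ago1 at 3 d and 30 d, and 0.284% and 0.911% with Ago2. At start +1 they were at most 0.170%, with Ago2 at 30 d. At each of these starts and with each protein the 30 d library had the larger share of them. Start +2 had 0.288% at 3 d and 0.278% at 30 d with Ago1, on 12 and 13 such reads, and 0.0629% and 0.241% with Ago2. Shorter reads at 30 d were not particular to this strand. From 3 d to 30 d the mean length of the median arm changed by -0.08 nt with Ago1 and -0.10 nt with Ago2. The 3p strand changed by -0.05 and -0.06 nt.

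Most arms kept their main start. The share of an arm's most abundant start over the 4 libraries moved by at least 5 points between the proteins in 24.1% of arms at 3 d (20 of 83) and 22.6% at 30 d (19 of 84), and another start became the most abundant in 8.43% and 5.95%. Both miR-956 strands are counted in these percentages, and each moved by at least 5 points at both ages. At 30 d the 5p strand passed the minimum through the Ago1 library, so nothing is read from its call there. As the 3p strand was chosen by its start shares, nothing is read from its place among the arms. It stood 5th in size of change at 3 d, after miR-31b-5p, 2 arms without a name here and miR-210-3p. At miR-31b-5p the main start went from 87.8% with Ago1 to 11.8% with Ago2 at 3 d. At miR-210-3p, a microRNA of photoreceptors, it went from 79.7% to 23.3%. The unnamed arms went the other way, from 17.8% to 93.7% and from 18.5% to 89.5%.

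Abundant microRNAs served as references, together with miR-210-3p and miR-375-3p, which were picked for their shifted starts. At 3 d the main start of miR-184-3p held 99.8% of reads with either protein. That of bantam-3p held 99.9% with Ago1 and 99.8% with Ago2, and that of miR-263a-5p held 99.4% and 99.5%. At miR-375-3p it went from 97.9% to 82.7%, at miR-8-3p from 95.5% to 99.0% and at miR-277-3p from 96.5% to 98.3%. Of the 7 reference arms, miR-210-3p and miR-375-3p moved by at least 5 points. As these were picked for shifted starts, nothing is read from that count. Between the ages, 6.1% of arms with Ago1 (5 of 82) and 5.88% with Ago2 (4 of 68) moved by at least 5 points, and the 3p strand moved by less, 1.99 points with Ago1 and 2.89 with Ago2.

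**Figure D4:**
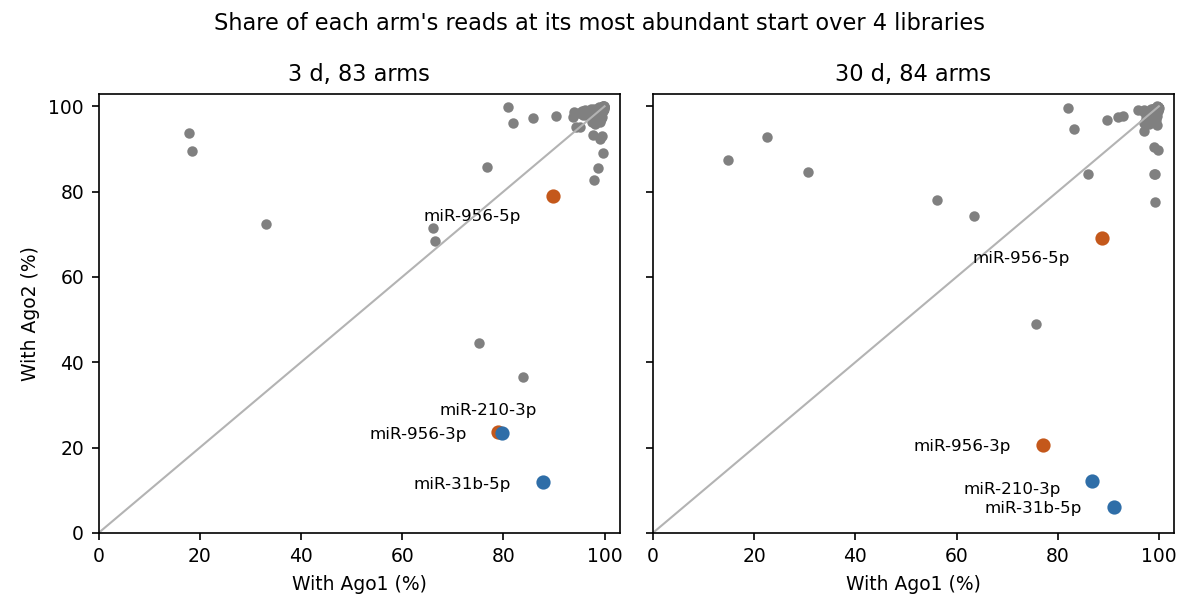
Share of each arm's reads at its most abundant start over the 4 libraries, with Ago1 (horizontal axis, percent) against Ago2 (vertical axis, percent), 1 point per arm of at least 100 RPM, at 3 d (83 arms) and 30 d (84 arms); the line marks equal shares. Most arms lie near the upper right corner, while miR-956-3p lies at 79.0% against 23.5% at 3 d and 77.0% against 20.7% at 30 d.

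The 5p strand, the partner of the guide in the duplex, was rare with both proteins and rarer with Ago2. It took 10491 reads (Ago1, 3 d), 10777 (Ago1, 30 d), 2521 (Ago2, 3 d) and 2409 (Ago2, 30 d). Of the hairpin's reads it made up 0.227% (0.223% to 0.231%) and 0.208% (0.204% to 0.212%) with Ago1 at 3 d and 30 d. With Ago2 it made up 0.0758% (0.0729% to 0.0789%) and 0.0445% (0.0428% to 0.0463%). Both Ago2 shares lay below both Ago1 shares.

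In most hairpins used as references, the strand that was rarer with Ago1 took a larger share with Ago2. Its share went from 0.582% to 93.5% for bantam-5p at 3 d, from 6.76% to 61.1% for miR-8-5p, from 0.0155% to 1.57% for miR-184-5p and from 0.0871% to 0.470% for miR-277-5p. With Ago2 at 3 d, bantam-5p and miR-8-5p were thus the more abundant strands of their hairpins. For miR-263a-3p alone of the 5 strands the share was lower with Ago2, 0.0324% against 0.0722%, and at 30 d each of the 5 had the same direction as at 3 d. Of these 5 hairpins, that of miR-263a was picked for its abundance with Ago2 and the others for theirs with Ago1. Such a choice bears on the share of the partner strand, and the partners were added after their values were seen. The 5 are no sample of all hairpins, and nothing is read from their contrast with miR-956-5p.

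Relative to all listed reads, the 5p strand stood at 394 RPM (Ago1, 3 d), 407 (Ago1, 30 d), 187 (Ago2, 3 d) and 69.7 (Ago2, 30 d). It was 2.10-fold lower with Ago2 at 3 d (log2 ratio -1.07, interval -1.14 to -1.01) and 5.78-fold lower at 30 d (-2.53, interval -2.61 to -2.48). The median arm stood at -3.10 and -2.53, so the 5p strand lay above the median at 3 d and at it at 30 d. At 30 d it passed the minimum through the Ago1 library, so nothing is read from that place. The value at 3 d turned to 0.51, 1.62 and 0.33 with TMM factors and the median of ratios over arms of at least 100 RPM and without the 10 most abundant arms. The value at 30 d was -1.73 with the median of ratios, -1.19 and -0.085 with TMM factors and the median of ratios over arms of at least 100 RPM and -1.55 without the 10 most abundant arms. At 30 d the 5p strand was 2.66-fold lower than at 3 d with Ago2 (log2 ratio -1.41). As it stood at 69.7 RPM there and passed the minimum through the 3 d library, no call is drawn from this. The 19 arms at least 2-fold apart were 11 higher and 8 lower. That split was 7 and 10 with either set of TMM factors and 5 and 12 with the median of ratios over arms of at least 100 RPM. With Ago1 the 5p strand was at 0.05, which turned to -0.16 with the median of ratios over arms of at least 100 RPM.

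The forms of the 5p strand also differed between the proteins. The full 24 nt form of start 0 took 76.2% of the strand (Ago1, 3 d), 75.8% (Ago1, 30 d), 33.4% (Ago2, 3 d) and 32.4% (Ago2, 30 d). The 23 nt form, 1 nt shorter at the 3' end, took 12.3% and 11.8% with Ago1 and 41.9% and 33.1% with Ago2. Start +2, whose seed is TTTGGAA in place of TGTTTGG, took 4.97% (4.56% to 5.40%) and 5.06% (4.65% to 5.49%) with Ago1 over all its lengths. With Ago2 it took 18.9% (17.37% to 20.46%) and 26.9% (25.10% to 28.68%), on 476 and 647 reads. Relative to all listed reads it stood at 19.6 and 20.6 RPM with Ago1 at 3 d and 30 d, and at 35.3 and 18.7 RPM with Ago2. On those totals it was thus not higher with Ago2 at 30 d, and with Ago2 it was lower at 30 d than at 3 d.

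Start 0 of the 5p strand thus held 89.7% with Ago1 and 79.0% with Ago2 at 3 d, and 88.7% and 69.1% at 30 d. Start +1 went the other way from its 3p namesake and was lower with Ago2, 1.79% against 4.74% at 3 d and 3.32% against 5.59% at 30 d, on 45 and 80 reads with Ago2. In size of change the 5p strand stood 14th of 83 arms at 3 d and 10th of 84 at 30 d. From 3 d to 30 d its start 0 stood -9.90 points apart with Ago2 (interval -12.34 to -7.47), the 2nd in size of 68 arms after miR-210-3p, and -1.04 points apart with Ago1. At 69.7 RPM with Ago2 at 30 d, the 5p strand passed the minimum only through the other library in the comparisons that use that library. Nothing is therefore read from its place among the 84 or the 68 arms. The remaining named 5p starts, -1, +3 and +6, each had at most 51 reads in a library. Start -1 had 0 reads with Ago2 at 30 d, and its interval there reached up to 0.153% of the strand.

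**Figure D5:**
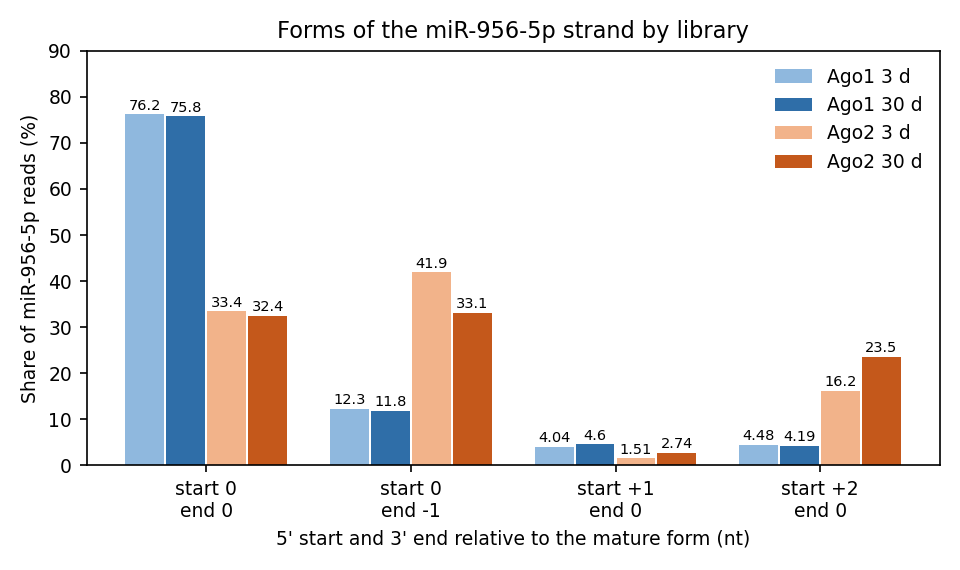
Share of miR-956-5p reads (vertical axis, percent) in its 4 main forms, given by 5' start and 3' end relative to the mature form (horizontal axis, nt), with 1 bar for each library. The full form stands at 76.2% and 75.8% with Ago1 against 33.4% and 32.4% with Ago2, and the form that starts 2 nt late at 4.48% and 4.19% against 16.2% and 23.5%.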

How the data were processed

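For each of the 4 libraries the authors deposited a list of small RNA sequences with their raw read counts, whole numbers without normalization. The library kit was Illumina's TruSeq for small RNA, per the labels' protocols. CASAVA 1.8.2 and Bowtie are named in the submitters' processing notes, as is the build dm3. How reads were trimmed and filtered, and the total sequencing depth, were not given in the sources used here.

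A sequence listed more than once was counted once; no miR-956 sequence was. Sequences were grouped into 634 arms by the match rule. Log2 ratios used a pseudocount of 1 RPM. Intervals of shares are exact (Clopper-Pearson) and of ratios exact conditional binomial intervals of the raw counts, while differences of shares and of ratios have delta-method intervals. A start share was compared where both libraries had at least 100 reads of the arm. The pairing used RNAduplex of ViennaRNA 2.7.2, and scaling factors came from edgeR 4.0.16. Scripts were tested on simulated data. No sequence of the mature strands or the hairpin was in the reference used here, so the mature strands were taken from the lists, and reads were not split into templated and untemplated ends. Coordinates are from an annotation of BDGP6, a later build than dm3.

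Both arms, each start with at least 0.1% of an arm in a library and 7 reference arms are named, and the 5 arms with the largest change of start share at 3 d are given, 2 of them without a name. The partner strands of 5 of the references were added after their values were seen. Members, lists and limits were chosen with earlier results of these data known.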

Additional observations from a re-analysis of the deposited data

Results flagged for a closer look

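The age ratios of the hairpin had opposite signs with the 2 proteins. For the 3p strand the log2 ratio of 30 d over 3 d was 0.17 with Ago1 and -0.65 with Ago2. For start 0 it was 0.14 and -0.84, for start +1 it was 0.30 and -0.61, and for start -1 it was 0.68 and -0.20. For the 5p strand it was 0.049 and -1.41. Each rests on 1 library per group, and the difference between the proteins was not tested. The values of the 3p strand, start 0 and the 5p strand with Ago1 changed sign with the median of ratios over arms of at least 100 RPM.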

How the results depend on the processing

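When lines of repeated sequences were summed, and when reads were limited to 20 to 24 nt, the shares of 3p starts -1, 0 and +1 and of the 5p strand stayed within their counting intervals, except that of start -1 with Ago2 at 30 d, at 1.01% with the length limit. Ratios between libraries moved with the scaling. Log2 ratios follow in the order Ago2 over Ago1 at 3 d and 30 d, then 30 d over 3 d with Ago1 and Ago2. With TMM factors, start 0 was at -0.74, -2.25, 0.48 and -1.03, start +1 at 2.87, 1.43, 0.64 and -0.79, and start -1 at 3.82, 2.42, 1.02 and -0.38. With the median of ratios, start 0 was at -0.38, -1.41, 0.23 and -0.80, start +1 at 3.23, 2.27, 0.40 and -0.57, and start -1 at 4.19, 3.25, 0.77 and -0.16. With TMM factors over arms of at least 100 RPM, start 0 was at 0.35, -0.87, 0.20 and -1.02, start +1 at 3.96, 2.81, 0.37 and -0.78, and start -1 at 4.91, 3.79, 0.74 and -0.37. With the median of ratios over those arms, start 0 was at 1.46, 0.24, -0.077 and -1.30, start +1 at 5.08, 3.93, 0.089 and -1.06, and start -1 at 6.02, 4.90, 0.46 and -0.65. With totals that left out the 10 most abundant arms, start 0 was at 0.17, -1.22, 0.17 and -1.22, start +1 at 3.78, 2.46, 0.34 and -0.99, and start -1 at 4.74, 3.44, 0.72 and -0.58. Starts +1 and -1 held their direction in each, and start 0 turned where its sign differs from the reported -1.24, -2.22, 0.14 and -0.84. The 3p strand at 30 d, Ago2 over Ago1, turned to 0.49, 1.03, 2.14 and 0.67 under the last 4 of these, and with age in Ago1 to -0.040 with the median of ratios over arms of at least 100 RPM. The 5p strand at 3 d turned to 0.51, 1.62 and 0.33 under the last 3, and with age in Ago1 to -0.16 with that median of ratios. The cause of these turns was not tested. Summed lines gave -1.23 and -2.21 for start 0 and 2.39 and 1.47 for start +1 between the proteins at 3 d and 30 d. The limit to 20 to 24 nt gave -1.17 and -2.12 for start 0, 2.44 and 1.56 for start +1 and 3.40 and 2.53 for start -1, with age values in Ago2 of -0.81 and -0.58 for starts 0 and +1. A pseudocount of 10 RPM gave 3.27 and 2.41 for start -1. Arms at least 2-fold apart numbered 78, 80, 2 and 19 in the same order, 131, 131, 14 and 42 with a minimum of 10 RPM and 205, 207, 25 and 58 with no minimum beyond 1 read, as more arms are counted. For 30 d over 3 d with Ago1 they numbered 8 with TMM factors, 4 with the median of ratios and 7 with that over arms of at least 100 RPM. Arms whose main start moved by at least 5 points numbered 20, 19, 5 and 4, 34, 32, 13 and 15 with the lower minimum and 36, 36, 21 and 15 with none.

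The factors over arms of at least 100 RPM were added after seeing the data. Restricting reads to the hairpin sequence was not run, as no hairpin sequence was used here. No paired analysis was possible because each group has 1 library and no test was made, and no replicate was left out. The rare 5p starts rest on few reads.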
